A study of Homo sapiens with 8 samples.

Results

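The unfolded protein response and the integrated stress response were followed through 38 genes in SFPQ-silenced and control cells of 2 epithelial ovarian cancer (EOC) lines, MDAH and SKOV3. The genes were taken from a list and split into 19 genes of the ATF4 branch and 19 of the ER chaperone branch, out of 20503 genes named on the arrays. Each line was measured on 4 one-colour arrays, 2 of control cells and 2 of cells transduced with a lentiviral shRNA against SFPQ, a nuclear RNA-binding splicing factor. One silenced array of each line held sh-SFPQ#2 and the other sh-SFPQ#3. The labels assign the control shRNA to both controls of a line, whereas the methods list untransduced parental cells as well, so that a control here means only a cell that was not silenced. The silenced arrays of a line differ in their shRNA, and neither source says how many cultures stand behind each array or whether both controls came from separate ones, so that p-values measure only the spread between these samples, which for the controls may be technical.

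In the integrated stress response, kinases that sense stress (PERK, encoded by EIF2AK3, and GCN2, encoded by EIF2AK4) phosphorylate the initiation factor eIF2. Bulk translation slows while the mRNA of the transcription factor ATF4 is translated more, and ATF4 then raises genes for amino acid supply, redox balance and, when stress lasts, cell death. The unfolded protein response shares PERK with this pathway and adds the sensors IRE1 (ERN1) and ATF6, which raise chaperones and degradation factors of the endoplasmic reticulum (ER) through spliced XBP1 and cleaved ATF6. These arrays measure the RNA of each gene and neither the phosphorylation of eIF2, nor translation, nor the splicing of XBP1.

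All values below are log2 signals relative to the 75th percentile of the same array, for the brightest probe of each gene. For MDAH cells this percentile stood at a raw signal of 496.2 and 482.5 in controls, 405.2 (sh-SFPQ#2) and 243.9 (sh-SFPQ#3). For SKOV3 cells the values were 437.8 and 387.2 in controls, 463.4 for sh-SFPQ#2 and 466.1 for sh-SFPQ#3. All 38 genes had a probe, and 37 of them had a group with both arrays well above background and were tested by limma among 15546 genes. ERN1 was left out because it was well above background on only 1 of the 8 arrays. All arrays lay on 1 slide, where each line took a row with its controls first, so that slide position and group cannot be told apart.

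The silenced gene itself fell in both lines. SFPQ (NM_005066) read 3.64 and 3.91 in MDAH controls against 2.45 for sh-SFPQ#2 and 2.10 for sh-SFPQ#3. The SKOV3 arrays gave 4.84 and 4.66 in controls against 3.01 and 2.48. No silenced array overlapped the controls of its line, and with sh-SFPQ#3 the signal was the lower of the 2 shRNAs in both lines. The log2 differences were -1.50 (limma adjusted p = 0.0328) and -2.01 (limma adjusted p = 0.0299), each passing in 3 of 8 fits that left out 1 array, with adjusted p up to 0.218 and 0.118.

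Both lines carried epithelial markers. Of 9, 8 were well above background on all 8 arrays, and CDH1 (E-cadherin) was not in SKOV3 controls. Of 6 Mullerian and ovarian markers, PAX8 and FOLR1 were well above background on all 8, MSLN was on none, WT1 was not in SKOV3 cells, and MUC16 was only in silenced SKOV3 cells. KRT18, a keratin of simple epithelia, lay between 7.14 and 8.16. Of 9 mesenchymal markers, 5 were well above background on all 8 arrays (VIM, CDH2, ZEB1, COL1A1 and ACTA2) and 2 on none (COL3A1 and PDGFRB). Of 8 leukocyte and endothelial markers, 5 were on all 8 (PTPRC, CD14, CD68, CD79A and CDH5) and CD3E of T cells on none. The part of other cells in the results was not tested.

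The ATF4 branch differed between control and SFPQ-silenced SKOV3 cells in 3 genes. CHAC1, NUPR1 and ATF3 rose by 6.61-fold, 4.76-fold and 3.28-fold, and no gene of the branch fell. This was 3 of 19 genes higher, where 0.425% of all genes tested were called higher in SKOV3 cells and 0.997% in either direction. In MDAH cells 0 of 19 passed, where 2.03% of all genes were called. An unadjusted p under 0.05 in limma was reached by 10 of 19 in SKOV3 cells and 2 of 19 in MDAH cells. Over all genes the shares were 19.5% and 23.1%. The median log2 difference of the branch was 0.81 in SKOV3 cells, with 16 of 19 genes higher, and -0.09 in MDAH cells, with 15 of 19 lower, although the MDAH median turned to 0.02 when arrays were centred on their medians. Over all genes tested the medians were -0.04 and 0.10.

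**Figure D1:**
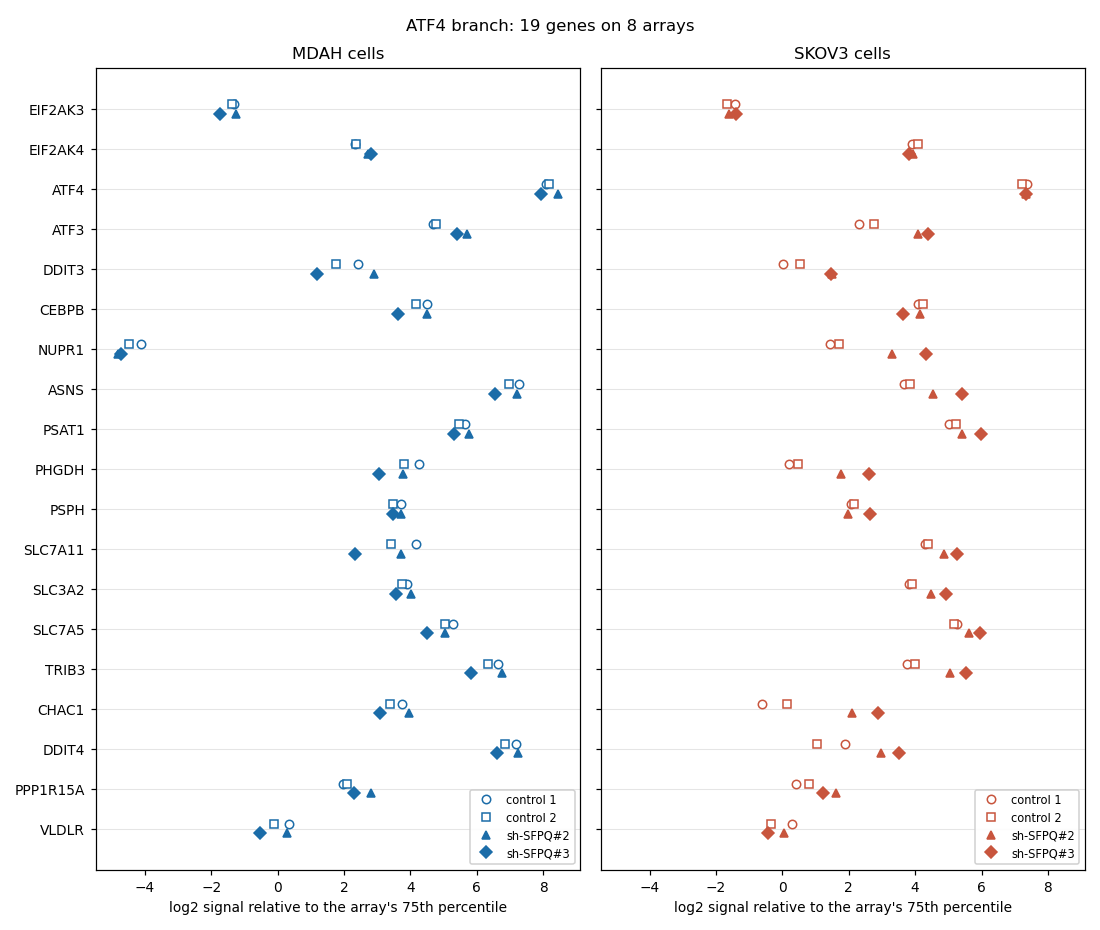
The log2 signal of the 19 ATF4 branch genes on each array, relative to the 75th percentile of that array, in MDAH cells (left) and SKOV3 cells (right). Open symbols are controls and filled symbols are SFPQ-silenced cells, as the legend gives them. In SKOV3 cells the silenced arrays of 13 genes lie to the right of both controls, where 25.9% of all genes tested did, and in MDAH cells those of 3 genes do, against 35.6%.

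CHAC1 (NM_024111) encodes an enzyme that degrades glutathione and is a known target of ATF4 and CHOP. Its signal in SKOV3 cells was -0.61 and 0.15 in controls, 2.09 for sh-SFPQ#2 and 2.89 for sh-SFPQ#3. The MDAH arrays gave 3.74 and 3.39 in controls, 3.96 for sh-SFPQ#2 and 3.09 for sh-SFPQ#3. The silenced SKOV3 arrays stood well clear of their controls, while the MDAH arrays overlapped. The log2 difference in SKOV3 cells was 2.73 (standard error, SE, 0.42, limma adjusted p = 0.0448), against -0.04 in MDAH cells.

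NUPR1 (NM_001042483), a small stress-induced chromatin protein, was far lower in MDAH cells than in SKOV3 cells. SKOV3 cells gave 1.43 and 1.70 in controls, 3.29 for sh-SFPQ#2 and 4.34 for sh-SFPQ#3. The silenced arrays did not overlap the controls, and the log2 difference was 2.25 (SE 0.34, limma adjusted p = 0.0448). MDAH cells gave -4.13 and -4.48 in controls and -4.82 and -4.73 in silenced cells, where neither array was well above background, so that no fold is given for MDAH.

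ATF3 (NM_001040619), a transcription factor of the stress response, had the smallest adjusted p of the members in the silencing comparisons. Its signal was 2.31 and 2.76 in SKOV3 controls, 4.09 for sh-SFPQ#2 and 4.40 for sh-SFPQ#3. On the MDAH arrays the signal was 4.69 and 4.78 in controls, 5.70 for sh-SFPQ#2 and 5.40 for sh-SFPQ#3. Both silenced arrays lay above both controls in each line. The log2 difference was 1.71 in SKOV3 cells (SE 0.22, limma adjusted p = 0.0299) and 0.81 in MDAH cells (SE 0.22, limma adjusted p = 0.104). The mean of the lines for ATF3 was a log2 difference of 1.26 (SE 0.15, limma adjusted p = 0.0123), or 2.40-fold. Its other 3 probes, all well above background, differed by 1.35, 1.99 and 0.18 in SKOV3 cells and by 0.69, 1.03 and 0.09 in MDAH cells.

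The 3 calls in SKOV3 cells depended on single arrays and on the processing. CHAC1 and NUPR1 missed the threshold under quantile normalization (limma adjusted p = 0.0552 and 0.0545), without the filter on dim probes (0.0792 each) and with SKOV3 cells fitted alone (0.165 and 0.184), and CHAC1 also with arrays centred on their medians (0.0558). ATF3 passed under all other scalings but not without the filter (limma adjusted p = 0.0599) or with SKOV3 cells fitted alone (0.158). Without SKOV3 control 1, the adjusted p from limma was 0.167 for CHAC1, 0.167 for NUPR1 and 0.121 for ATF3, and their log2 differences were 2.35, 2.12 and 1.49. No gene of the branch passed without SKOV3 control 2, SKOV3 sh-SFPQ#3, MDAH control 1 or MDAH control 2, although the last 2 arrays leave the SKOV3 differences as they are and change only the shared estimate of the spread. Without SKOV3 sh-SFPQ#2, 4 genes passed. The ATF3 average stayed below the threshold in all such fits except those without MDAH control 1 (limma adjusted p = 0.0925) and without MDAH control 2 (limma adjusted p = 0.0726).

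The upstream members of the branch gave no call. ATF4 (NM_001675) itself read 7.36 and 7.22 in SKOV3 controls and 7.35 with either shRNA, and 8.08 and 8.19 in MDAH controls against 8.46 and 7.95 in silenced cells. Silenced and control arrays overlapped in both lines, although both silenced SKOV3 arrays lay above both controls under quantile normalization, and the log2 difference was 0.06 in each (SE 0.20). EIF2AK3, the kinase PERK, differed by 0.04 in SKOV3 cells and -0.16 in MDAH cells, again with overlap. EIF2AK4, the amino acid sensor GCN2, read 2.33 and 2.37 in MDAH controls and 2.71 and 2.82 in silenced MDAH cells, without overlap (log2 difference 0.42, limma adjusted p = 0.165). On the SKOV3 arrays the signal was 3.92 and 4.08 in controls and 3.93 and 3.80 in silenced cells, and the difference was -0.14.

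DDIT3 (NM_004083), the gene for the death-linked factor CHOP, did not pass. It read 0.02 and 0.53 in SKOV3 controls, 1.49 for sh-SFPQ#2 and 1.47 for sh-SFPQ#3, a log2 difference of 1.21 (SE 0.54, limma adjusted p = 0.281). The MDAH values were 2.43 and 1.77 in controls, 2.92 for sh-SFPQ#2 and 1.19 for sh-SFPQ#3. The SKOV3 groups did not overlap, and in MDAH cells the 2 shRNAs lay on opposite sides of the controls. CEBPB, a partner of ATF4 on DNA, was among the lowest averages of the 38 genes. It read 4.49 and 4.17 in MDAH controls, 4.50 for sh-SFPQ#2 and 3.63 for sh-SFPQ#3, and 4.09, 4.24, 4.14 and 3.62 in the same order in SKOV3 cells, so that only the sh-SFPQ#3 array was below both controls in either line.

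Genes of amino acid synthesis had SKOV3 differences between 0.20 and 1.85, and none passed. PHGDH (NM_006623), the first enzyme of serine synthesis, read 0.20 and 0.46 in SKOV3 controls, 1.76 for sh-SFPQ#2 and 2.60 for sh-SFPQ#3. MDAH readings were 4.25 and 3.80 in controls, 3.79 for sh-SFPQ#2 and 3.05 for sh-SFPQ#3. The silenced arrays were above both controls in SKOV3 cells and below both in MDAH cells, where they overlapped once arrays were centred on their medians. Besides PHGDH, NUPR1 was the other of the 37 members with such opposite separation, which 11.8% of all genes tested had. Under quantile normalization SLC7A5 and EDEM1 had it too, 4 members in all, and with arrays centred on their medians NUPR1 and EDEM1 had it. The log2 difference was 1.85 (SE 0.36, limma adjusted p = 0.0782) in SKOV3 cells and -0.60 (SE 0.36, limma adjusted p = 0.356) in MDAH cells. ASNS (NM_001673), asparagine synthetase, read 3.65 and 3.83 in SKOV3 controls, 4.54 for sh-SFPQ#2 and 5.40 for sh-SFPQ#3. The signal in MDAH cells was 7.27 and 6.96 in controls, 7.23 and 6.55 in silenced cells. The SKOV3 groups were separate and the MDAH groups overlapped, and the differences were 1.24 (limma adjusted p = 0.135) and -0.23. PSAT1 and PSPH, the later steps of serine synthesis, differed by 0.58 and 0.20 in SKOV3 cells and by -0.02 and -0.01 in MDAH cells.

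The amino acid transporters SLC7A11, SLC3A2 and SLC7A5 were above both controls on each silenced SKOV3 array, without passing. SLC3A2, the heavy chain shared by the other 2, read 3.80 and 3.89 in SKOV3 controls, 4.48 for sh-SFPQ#2 and 4.94 for sh-SFPQ#3 (log2 difference 0.86, limma adjusted p = 0.123). SLC7A11, the light chain of the cystine and glutamate exchanger, differed by 0.73 in SKOV3 cells and by -0.77 in MDAH cells. SLC7A5, a carrier of large neutral amino acids, differed by 0.56 and -0.39. In MDAH cells the arrays of all 3 transporters overlapped, although both silenced arrays of SLC7A5 lay below both controls under quantile normalization.

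Among the feedback and effector genes, CHAC1 passed in SKOV3 cells and the other 4 did not. DDIT4 (NM_019058), also called REDD1, restrains mTORC1, and it read 1.88 and 1.05 in SKOV3 controls, 2.96 for sh-SFPQ#2 and 3.52 for sh-SFPQ#3. For MDAH cells the values were 7.20 and 6.85 in controls, 7.24 and 6.62 in silenced cells. The SKOV3 groups were separate, and the log2 difference was 1.78 (SE 0.36, limma adjusted p = 0.0831), against -0.09 in MDAH cells. TRIB3, a pseudokinase that restrains ATF4, read 3.74 and 4.01 in SKOV3 controls, 5.04 for sh-SFPQ#2 and 5.52 for sh-SFPQ#3 (log2 difference 1.41, limma adjusted p = 0.106). In MDAH cells TRIB3 read 6.65 and 6.34 in controls, 6.76 and 5.83 in silenced cells, and overlapped. PPP1R15A, or GADD34, which brings the phosphatase to eIF2, read 0.41 and 0.79 in SKOV3 controls and 1.60 and 1.23 in silenced cells, and 1.97 and 2.09 against 2.81 and 2.30 in MDAH cells. Both silenced arrays were higher in each line, by 0.81 in SKOV3 cells and 0.53 in MDAH cells (limma adjusted p = 0.151 and 0.242). VLDLR, a lipoprotein receptor that ATF4 is known to raise, read 0.29 and -0.34 in SKOV3 controls and 0.05 and -0.44 in silenced cells. MDAH cells read 0.33 and -0.10 in controls, 0.27 and -0.53 in silenced cells, and the groups overlapped in both lines.

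ATF4 binds with a C/EBP partner to composite elements whose letters are TGATGNAA. These were sought on both strands of the promoters that RefSeq gives (build GRCh38.p14, from 250 bases before to 50 after the transcript start), which 16 of the 19 branch genes had. Only the first promoter listed for a gene was searched, and its other transcript starts were not. Of the 16 promoters, 4 held a match (ATF3, ASNS, SLC3A2 and CHAC1), or 25%, against 3.67% of 27305 promoters. In the ER chaperone branch 1 of 19 promoters held one (HERPUD1), or 5.26%. A match is a run of letters and not a measured site. The list holds genes already known as ATF4 targets, so a high share of matches says nothing of silencing. ASNS did not pass in SKOV3 cells, and NUPR1, which did, was among the genes without a RefSeq promoter. The promoters of CHAC1, ATF3 and ASNS, printed from those with a match, lie at chr15:40953221-40953520 (plus strand), chr1:212565157-212565456 (plus strand) and chr7:97872359-97872658 (minus strand). Capitals mark the match, which starts at position -209 in CHAC1 (reverse strand, TTGCATCA), -191 in ATF3 (TGATGGAA) and -68 in ASNS (TGATGAAA), counted from the transcript start.
CHAC1: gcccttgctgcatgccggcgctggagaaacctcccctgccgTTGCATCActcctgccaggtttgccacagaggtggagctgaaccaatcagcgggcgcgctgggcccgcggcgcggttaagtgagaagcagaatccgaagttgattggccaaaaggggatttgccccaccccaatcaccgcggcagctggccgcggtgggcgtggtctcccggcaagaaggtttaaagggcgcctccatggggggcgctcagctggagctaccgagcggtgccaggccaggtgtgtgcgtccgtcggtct
ATF3: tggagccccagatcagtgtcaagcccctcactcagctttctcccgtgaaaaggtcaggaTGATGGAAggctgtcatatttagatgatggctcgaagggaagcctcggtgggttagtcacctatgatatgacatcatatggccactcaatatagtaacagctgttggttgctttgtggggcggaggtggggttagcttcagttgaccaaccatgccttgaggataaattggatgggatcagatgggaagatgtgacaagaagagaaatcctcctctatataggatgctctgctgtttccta
ASNS: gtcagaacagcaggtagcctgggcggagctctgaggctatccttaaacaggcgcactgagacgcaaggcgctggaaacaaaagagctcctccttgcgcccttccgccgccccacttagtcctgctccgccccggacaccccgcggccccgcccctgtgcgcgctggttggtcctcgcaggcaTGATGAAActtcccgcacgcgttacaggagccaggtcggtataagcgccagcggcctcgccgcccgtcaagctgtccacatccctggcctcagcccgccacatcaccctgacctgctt

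**Figure D2:**
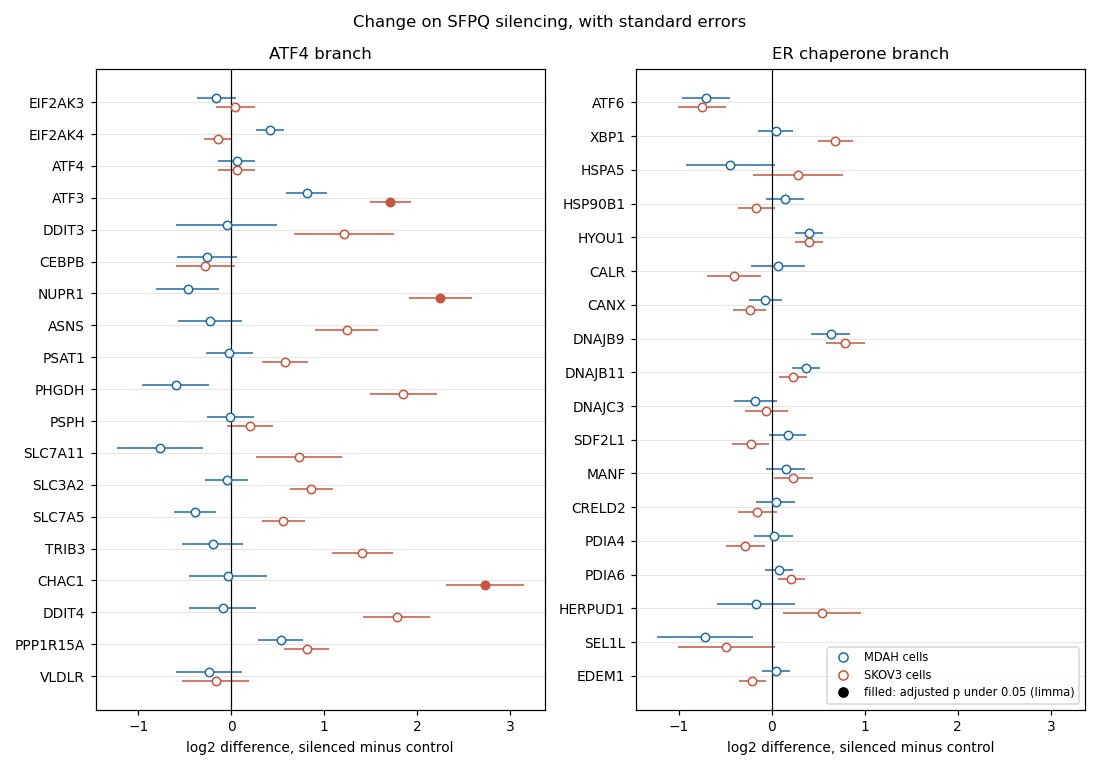
The log2 difference between SFPQ-silenced and control cells (horizontal axis) with its standard error from limma, for the 19 ATF4 branch genes (left) and the 18 ER chaperone branch genes tested (right). Filled points passed an adjusted p of 0.05, which were ATF3, NUPR1 and CHAC1 in SKOV3 cells.

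The ER chaperone branch gave 0 calls of 18 genes in either line, with 4 at an unadjusted p under 0.05 in MDAH cells and 4 in SKOV3 cells in limma, against 23.1% and 19.5% of all genes. Averaged over both lines, 1 gene rose, DNAJB9, where 2.02% of all genes were called higher and 5.66% in either direction. The branch median stood at 0.04 for MDAH and -0.11 for SKOV3 and turned to -0.10 and 0.01 under quantile normalization, and single genes lay between -0.75 and 0.79 on the log2 scale. In SKOV3 cells the silenced arrays of 7 genes were above both controls and those of 4 below both, against 25.9% and 32.1% of all genes tested. In MDAH cells 3 were above and 1 below, against 35.6% and 21.4%, and these counts moved to 6 and 1 with arrays centred on their medians and to 4 and 3 under quantile normalization.

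DNAJB9 (NM_012328), an ER co-chaperone of HSPA5 that spliced XBP1 raises, read 2.91 and 2.67 in MDAH controls, 3.31 for sh-SFPQ#2 and 3.53 for sh-SFPQ#3. The SKOV3 values were 1.75 and 1.81 in controls, 2.32 and 2.82 in silenced cells. No silenced array overlapped its controls. MDAH and SKOV3 cells had log2 differences of 0.63 and 0.79, averaging 0.71 (SE 0.15, limma adjusted p = 0.0458), a mean change of 1.63-fold. With all arrays kept, this average missed the threshold under quantile normalization (limma adjusted p = 0.0623) and without the filter on dim probes (0.0784). The average passed in only 2 of the 8 fits that left out 1 array, those without MDAH sh-SFPQ#2 and without SKOV3 sh-SFPQ#2, and its adjusted p reached 0.149 without MDAH control 2.

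Of the sensors, ATF6 (NM_007348) had the lowest average of the 38 genes. It read 2.34 and 2.33 in MDAH controls, 1.93 for sh-SFPQ#2 and 1.32 for sh-SFPQ#3. In SKOV3 cells it read 2.44 and 2.61 in controls, 2.06 for sh-SFPQ#2 and 1.50 for sh-SFPQ#3. All silenced arrays lay below the controls of their line, and sh-SFPQ#3 was the lower in both. MDAH and SKOV3 cells had log2 differences of -0.71 and -0.75, and the average, -0.73 (SE 0.19, limma adjusted p = 0.0689), did not pass. ERN1, the gene for IRE1, ranged from -6.10 to -4.29 over the 8 arrays and gave no change to report. XBP1 (NM_005080), the target of IRE1, read 3.93 and 4.07 in SKOV3 controls, 4.63 for sh-SFPQ#2 and 4.74 for sh-SFPQ#3 (log2 difference 0.68, limma adjusted p = 0.131). In MDAH cells it read 5.92 and 5.79 in controls, 6.12 and 5.68 in silenced cells, with overlap. Its probe cannot tell the spliced from the unspliced form here, since the probe sequence was not used.

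HSPA5 (NM_005347), which encodes the ER chaperone BiP and is the classic readout of the unfolded protein response, gave no call. It read 1.72 and 2.30 in SKOV3 controls, 2.34 for sh-SFPQ#2 and 2.23 for sh-SFPQ#3. In MDAH cells it read 3.35 and 3.07 in controls, 3.54 for sh-SFPQ#2 and 1.98 for sh-SFPQ#3. The groups overlapped in both lines, although both silenced SKOV3 arrays lay above both controls under quantile normalization, and in MDAH cells the 2 shRNAs lay on opposite sides of the controls. The log2 difference was 0.28 in SKOV3 cells and -0.45 in MDAH cells (SE 0.48 in each). HYOU1, an ER chaperone of the HSP110 family, differed by 0.40 in each line without overlap (limma adjusted p = 0.0733 for the average). HSP90B1, CALR and CANX, the ER forms of HSP90, calreticulin and calnexin, lay between -0.41 and 0.14.

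The other co-chaperones and folding factors were close to their controls. DNAJB11, a co-chaperone of HSPA5, was above both controls on all silenced arrays, by 0.37 in MDAH cells and 0.23 in SKOV3 cells, without passing. DNAJC3, SDF2L1, MANF and CRELD2, of which MANF and CRELD2 are secreted, lay between -0.23 and 0.23, and the disulfide isomerases PDIA4 and PDIA6 between -0.29 and 0.21. Of the degradation factors, SEL1L was among the lowest averages. It read 1.76 and 1.18 in MDAH controls, 1.61 for sh-SFPQ#2 and -0.11 for sh-SFPQ#3, and -0.28, -0.48, -0.80 and -0.93 in the same order in SKOV3 cells. The SKOV3 groups were separate, whereas in MDAH cells only sh-SFPQ#3 left the range of the controls. The brightest SEL1L probe differed by -0.72 in MDAH cells and -0.49 in SKOV3 cells. Another, also well above background on all 8 arrays, differed by -0.58 and -0.10. HERPUD1, a membrane protein of ER-associated degradation, differed by 0.54 in SKOV3 cells and -0.17 in MDAH cells, and EDEM1, which marks glycoproteins for degradation, by -0.21 and 0.04.

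**Figure D3:**
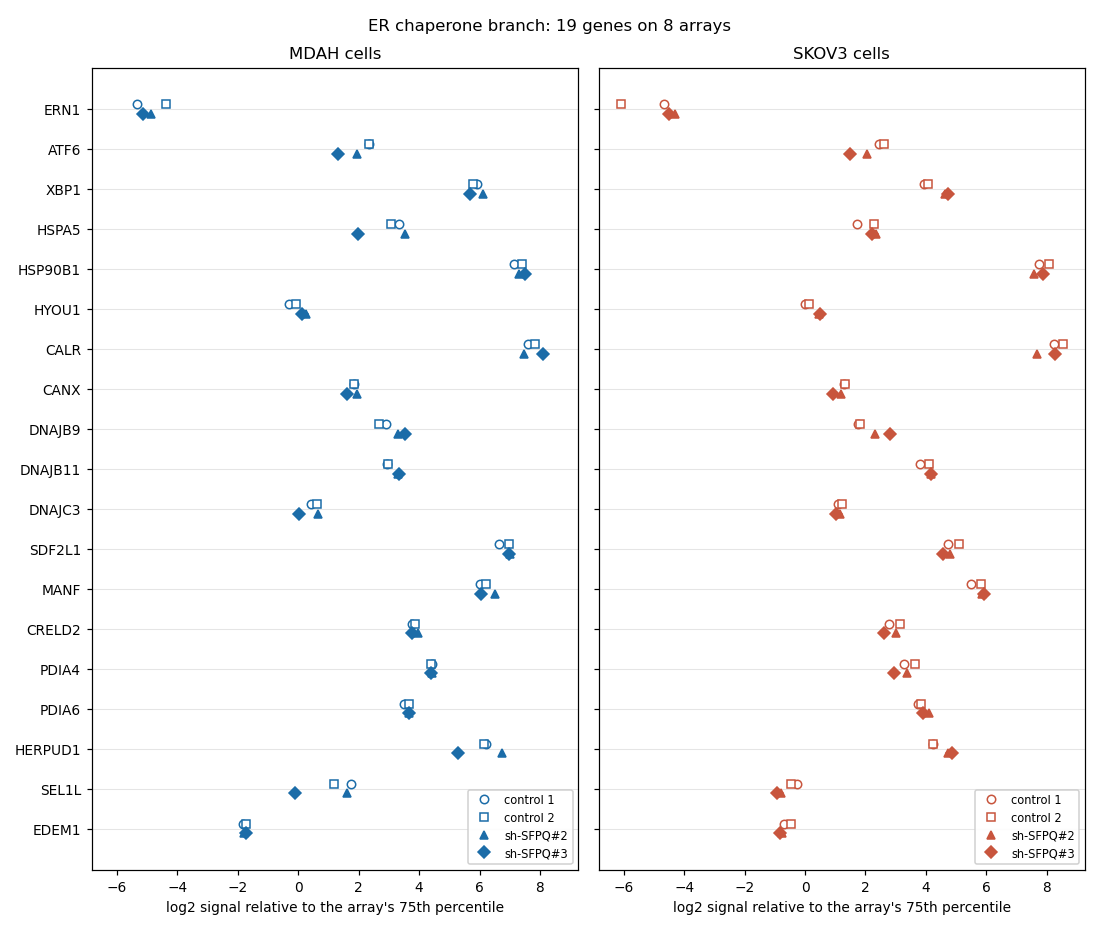
The log2 signal of the 19 ER chaperone branch genes on each array, relative to the 75th percentile of that array, in MDAH cells (left) and SKOV3 cells (right), with controls as open and SFPQ-silenced cells as filled symbols. DNAJB9 lies to the right of its controls and ATF6 to the left on every silenced array, and ERN1 was well above background on 1 array only.

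ER chaperone genes are known for the ER stress element, bound by ATF6 with the CCAAT-binding factor NF-Y. Its parts, CCAAT and CCACG with 9 bases between them, were found on either strand in 6 of 19 branch promoters (XBP1, HSPA5, HSP90B1, CALR, CANX and CRELD2), or 31.6%, against 0.0806% of 27305 promoters, and in 0 of the 16 ATF4 branch promoters. The related ATTGG and CCACG with 1 base between them was found in 3 (HYOU1, SDF2L1 and HERPUD1), or 15.8%, against 0.0549%. TGACGTGG, the core that XBP1 is known to bind, was found in HYOU1 alone, where it overlaps a match to the related element, and in 0.795% of all promoters. Since ER chaperone genes are known for such elements, the choice of list alone can give these shares, which say nothing of silencing. The promoter of HSPA5, at chr9:125241294-125241593 (minus strand, GRCh38.p14), is printed as the best-known case, with the match at position -66 in capitals.
HSPA5: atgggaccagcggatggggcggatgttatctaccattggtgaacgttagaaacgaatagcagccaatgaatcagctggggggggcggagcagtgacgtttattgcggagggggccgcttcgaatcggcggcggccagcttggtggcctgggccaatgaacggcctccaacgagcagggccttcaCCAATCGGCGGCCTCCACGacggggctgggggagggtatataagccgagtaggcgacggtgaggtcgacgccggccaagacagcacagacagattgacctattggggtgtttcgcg

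The arrays of the 2 shRNAs differed in MDAH cells. Against the mean of the controls the median of the ATF4 branch was 0.18 with sh-SFPQ#2, with 15 of 19 genes higher, and -0.42 with sh-SFPQ#3, with 3 of 19 higher, while control 2 minus control 1 gave -0.30. In SKOV3 cells it was 0.63 for sh-SFPQ#2 and 0.92 for sh-SFPQ#3, with 15 and 16 of 19 genes higher, and control 2 minus control 1 gave 0.16. In MDAH cells 17 of 19 branch genes were lower with sh-SFPQ#3 than with sh-SFPQ#2, and in SKOV3 cells 6 of 19 were. The opposite signs of the MDAH medians were also seen under quantile normalization (0.12 and -0.61) and when arrays were centred on their medians (0.39 and -0.41). Over all genes tested the medians for sh-SFPQ#3 minus sh-SFPQ#2 were 0.03 and -0.03. The MDAH sh-SFPQ#3 array was also the one with the lowest 75th percentile of raw signal, 243.9, and the part of this in its branch values was not tested. The ER chaperone branch had medians of 0.14 for sh-SFPQ#2 and -0.03 for sh-SFPQ#3 in MDAH cells and of 0.02 and -0.07 in SKOV3 cells.

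**Figure D4:**
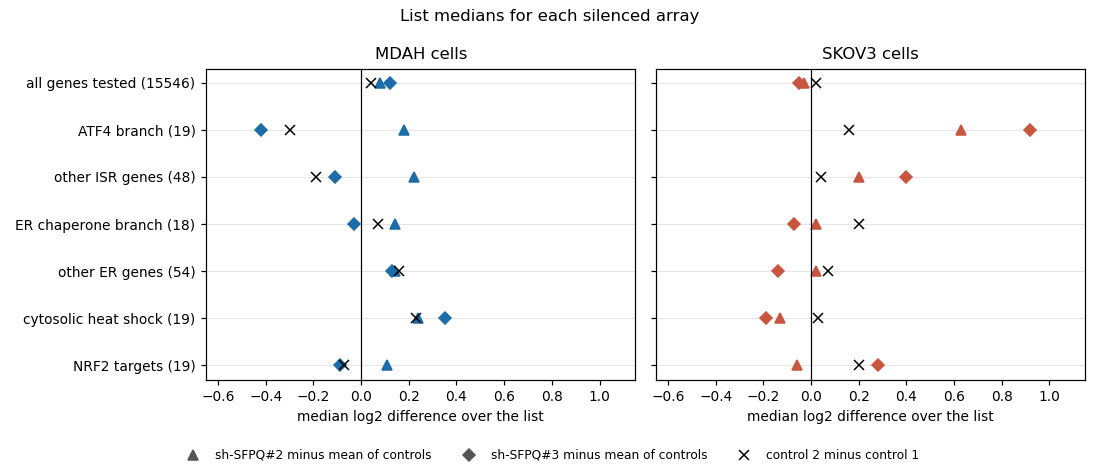
The median log2 difference of each list against the mean of the controls (horizontal axis), for sh-SFPQ#2 (triangles) and sh-SFPQ#3 (diamonds), with control 2 minus control 1 as crosses and the number of genes tested in parentheses. The ATF4 branch of SKOV3 cells stands at 0.63 and 0.92, its controls differ by 0.16, and in MDAH cells the 2 shRNAs lie on opposite sides of 0.

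No member of either branch passed the test of the difference between the lines (MDAH effect minus SKOV3 effect), which called 0.0965% of all genes. An unadjusted p under 0.05 in limma was reached by 10 of 19 ATF4 branch genes and 1 of 18 ER chaperone genes. Over all genes the share was 14.9%. The median difference was -0.91 for the ATF4 branch, 0.02 for the ER chaperone branch and 0.12 for all genes. Among members measured in every group, CHAC1, -2.76 (SE 0.59, limma adjusted p = 0.176), and PHGDH, -2.46 (adjusted p = 0.175), were lowest. The value of NUPR1, -2.72 (adjusted p = 0.129), rests on silenced MDAH arrays that were not well above background and has no rank. The change of the ATF4 branch is therefore not shown to differ between the lines for any single gene.

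Control cells of the 2 lines differed in the level of many members, and this comparison shares its control arrays with the silencing comparisons. MDAH controls were higher than SKOV3 controls for 10 ATF4 branch genes and lower for 2, and higher for 8 ER chaperone genes and lower for 4. Across all genes 57.5% were called, 26.8% as higher and 30.7% as lower in MDAH. The ATF4 branch genes furthest above SKOV3 were DDIT4, 47.2-fold higher in MDAH controls, CHAC1 (13.9-fold), PHGDH (12.9-fold), ASNS (10.4-fold), TRIB3 (6.14-fold) and ATF3 (4.61-fold). DDIT3, ATF4 and PPP1R15A were 3.55-fold, 1.80-fold and 2.70-fold higher, and PSPH, the last enzyme of serine synthesis, 2.82-fold. NUPR1 had the largest gap of the branch and went the other way, 58.5-fold lower in MDAH controls, as did EIF2AK4, 3.15-fold lower.

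In the ER chaperone branch the gaps between control cells were smaller. HERPUD1 was 3.82-fold, SDF2L1 3.68-fold, XBP1 3.62-fold and SEL1L 3.60-fold higher in MDAH controls. DNAJB9, PDIA4, CRELD2 and CANX were between 1.45-fold and 2.02-fold higher. EDEM1 was 2.32-fold, DNAJC3 1.55-fold and HSP90B1 1.54-fold lower, and DNAJB11, also lower, read 2.93 and 2.97 in MDAH controls against 3.81 and 4.09 in SKOV3 controls. HSPA5 read 3.35 and 3.07 in MDAH controls against 1.72 and 2.30 in SKOV3 controls without passing (2.30-fold, limma adjusted p = 0.0697).

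After silencing, the measured gap between the lines was smaller in size for 13 of 19 ATF4 branch genes and larger for 5, and for ER chaperone genes smaller for 11 of 18 and larger for 6. No share over all genes was counted beside these, so they do not show that either branch narrowed more than other genes. MDAH minus SKOV3 was 3.80 in controls and 1.03 in silenced cells for CHAC1, 3.69 and 1.24 for PHGDH, 3.38 and 1.91 for ASNS, 2.62 and 1.02 for TRIB3, and 5.56 and 3.69 for DDIT4. It widened from -0.55 to -2.05 for SLC7A11, from -0.01 to -0.92 for SLC3A2 and from -0.06 to -1.01 for SLC7A5. NUPR1, also counted as larger, stood at -5.87 in controls. Its gap in silenced cells has no exact size, because the silenced MDAH arrays lay at background. The median gap of the branch was 0.85 in controls and 0.57 in silenced cells, and that of the ER chaperone branch 0.50 and 0.43. As given above, the change in gap passed for none of these genes.

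**Figure D5:**
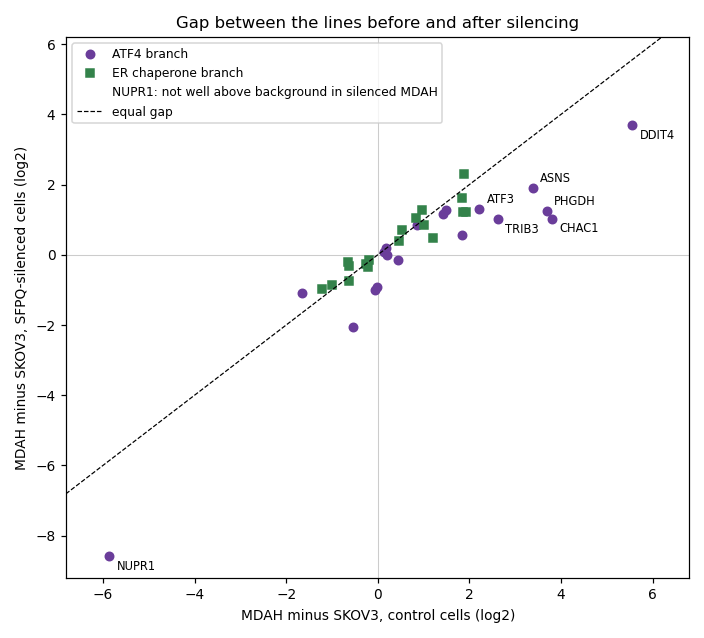
The log2 gap between MDAH and SKOV3 cells in controls (horizontal axis) and in SFPQ-silenced cells (vertical axis) for the 37 genes tested, each point a gene, with a dashed line for an equal gap; genes with a gap over 2 in controls are named. CHAC1, PHGDH, ASNS, TRIB3 and DDIT4 lie below the line, and NUPR1, which was not well above background in silenced MDAH cells, stands apart at the lower left.

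Other genes of the integrated stress response were read from a wider list of 50, of which 48 were tested. In SKOV3 cells 1 rose and none fell, against 0.425% of all genes called higher. In MDAH cells 0 passed. An unadjusted p under 0.05 in limma was reached by 2 in MDAH cells and 15 in SKOV3 cells, against 23.1% and 19.5% of all genes. Averaged over both lines 2 rose, against 2.02%. The median log2 difference was 0.29 in SKOV3 cells, with 34 of 48 higher, and 0.04 in MDAH cells, or -0.08 there under quantile normalization. SLC6A9, a glycine transporter, read -2.39 and -2.59 in SKOV3 controls, -0.59 for sh-SFPQ#2 and -0.01 for sh-SFPQ#3. In MDAH cells it read 2.57 and 2.31 in controls, 2.63 and 2.15 in silenced cells. The SKOV3 groups were far apart and the MDAH groups overlapped, with differences of 2.19 (SE 0.26, limma adjusted p = 0.0299) and -0.05, and the average, 1.07, passed as well (limma adjusted p = 0.0284). Both calls passed in 3 of 8 fits that left out 1 array, and neither did without any one of the 4 control arrays or SKOV3 sh-SFPQ#3. With the mean of its probes the SKOV3 difference was 1.12 and did not pass (limma adjusted p = 0.051), and the average did not pass with normexp (limma adjusted p = 0.0556). The SKOV3 difference also missed the threshold without the filter on dim probes (limma adjusted p = 0.0599) and with SKOV3 cells fitted alone (0.153). The average missed it without the filter as well (limma adjusted p = 0.0536). SESN2, a stress-induced brake on mTORC1, read -1.88 and -1.85 in SKOV3 controls and -0.72 and -0.16 in silenced cells, and -0.12 and -0.61 against 0.43 and -0.09 in MDAH cells. The SKOV3 groups were separate and both silenced MDAH arrays were above both controls, and the average rose by 0.98 (SE 0.20, limma adjusted p = 0.0423). It passed in 1 of 8 fits that left out 1 array, the one without SKOV3 sh-SFPQ#2, and its adjusted p reached 0.141 without MDAH control 2. LARS1, leucyl-tRNA synthetase (-0.40), and MTHFD1L, a mitochondrial one-carbon enzyme (-0.37), had the lowest averages, and neither passed.

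By role, the SKOV3 medians were 0.62 for 6 transporters, 0.57 for 8 regulators and secreted factors and 0.53 for 10 genes of one-carbon and amino acid metabolism. They were 0.09 for 13 aminoacyl-tRNA synthetases with the tRNA exportin XPOT, and -0.03 for 7 subunits of eIF2 and its exchange factor eIF2B with the eIF2 kinases EIF2AK1 and EIF2AK2 and the phosphatase regulator PPP1R15B. The same medians in MDAH cells were 0.08, -0.07, -0.03, 0.02 and 0.20, and the signs of the first 4, as of the last in SKOV3 cells, changed with the scaling. A further 54 ER genes gave 0 calls in either line (5 and 3 at an unadjusted p under 0.05 in limma in MDAH and SKOV3 cells, against 23.1% and 19.5% of all genes) and medians of 0.13 and -0.07, the latter 0.02 under quantile normalization. Their highest averages were those of SYVN1 (0.45) and DERL1 (0.33), both of ER-associated degradation, and the lowest those of DNAJC1 (-1.05) and CREB3L2 (-0.82), membrane proteins of the ER, and none passed.

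Of 19 cytosolic heat shock genes, 1 passed for SKOV3 cells and for both lines averaged, where 0.997% and 5.66% of all genes were called. CRYAB, a small heat shock protein, read -1.81 and -2.51 in SKOV3 controls, 0.31 for sh-SFPQ#2 and 1.68 for sh-SFPQ#3, and between -3.24 and -2.71 on the 4 MDAH arrays. It rose in SKOV3 cells (log2 difference 3.15, SE 0.46, limma adjusted p = 0.0434). The call passed in 1 of 8 fits that left out 1 array, the one without SKOV3 sh-SFPQ#2, and its adjusted p was up to 0.134 in the others and 0.184 with each line fitted alone. Without the filter on dim probes the SKOV3 call of CRYAB was lost too (limma adjusted p = 0.0792). Its average over both lines was 1.69 (limma adjusted p = 0.0365) and did not pass without the filter (0.065). Leaving out 1 array, this average lay between 1.35 and 2.04. The whole list had medians of -0.21 in SKOV3 cells, with 15 of 19 lower, and 0.30 in MDAH cells, with 17 of 19 higher, and of -0.10 and 0.17 under quantile normalization. Its highest average after CRYAB was that of HSPA8, the constitutive HSC70 (0.43), and the lowest were HSPA4L (-0.53) and HSP90AA1 (-0.26).

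Of 19 NRF2 targets tested, which include SLC7A11 of the ATF4 branch, 0 passed in either line (2 in each at an unadjusted p under 0.05 in limma, where 23.1% and 19.5% of all genes were). AKR1B10, an aldo-keto reductase, entered the test only through silenced SKOV3 cells, the one group where it was well above background, and its call for the average is not used. It was at least 2.08-fold higher there than in controls, a bound that sets the silenced mean against the lowest signal well above background on the control arrays. The medians of the 17 targets measured on all 8 arrays were 0.09 in SKOV3 cells and -0.01 in MDAH cells, and the MDAH median of all 19, also -0.01, turned to 0.10 when arrays were centred on their medians. ABCC2, an efflux pump, had the next highest average (0.44), and ME1 (-0.83) and AKR1C1 (-0.50), both enzymes of redox metabolism, had the lowest.

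Marker genes were read beside these changes. Of 9 epithelial markers 0 passed in MDAH or SKOV3 cells (1 and 3 at an unadjusted p under 0.05 in limma, against 23.1% and 19.5% of all genes), with median log2 differences of -0.15 and 0.66, or 0.40 in SKOV3 cells over the 8 measured on all arrays, beside 0.81 for the ATF4 branch. In SKOV3 cells 7 of the 9 were higher and 2 lower, and the 8 measured in every group lay between -0.40 for KRT8 and 1.34 for CLDN4. PAX8 and FOLR1, the 2 Mullerian and ovarian markers measured on all 8 arrays, differed by 0.50 and 1.83 in SKOV3 cells and by -0.60 and -0.37 in MDAH cells, without passing. The part of these shifts in the ATF4 branch values was not tested. Of 6 mesenchymal markers tested, 4 were lower in SKOV3 cells (median -0.11, or 0.01 under quantile normalization) and 1 in MDAH cells (median 0.39). COL1A1 was the 1 that passed in the average of both lines (1.18, limma adjusted p = 0.0296), where 2.02% of all genes were called higher, and it passed in 2 of 8 fits that left out 1 array, with an adjusted p up to 0.138 without MDAH control 1. MUC16 entered the test only through silenced SKOV3 cells, where it was at least 2.59-fold higher than in controls, and its call for the average is not used, since the other groups lay at background. No leukocyte or endothelial marker of the 6 tested passed in limma in any silencing comparison, with 2, 0 and 2 at an unadjusted p under 0.05 in MDAH cells, SKOV3 cells and their average, where 26.4% of all genes were.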

How the data were processed

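Total RNA of control and SFPQ-silenced MDAH and SKOV3 cells was labelled with Cy3 and hybridized to 8 one-colour Agilent arrays, 2 in each of 4 groups. The authors extracted the signals with Agilent Feature Extraction (11.5.1.1 per the file headers, 10.7.3.1 per the labels) and deposited the background-corrected linear intensity per spot, not normalized between arrays. A log2 table that the authors deposited as well proved to be quantile-normalized and centred on the median of each probe, and served as an alternative.

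After removal of control and outlier spots, the log2 intensities of a probe's spots were averaged and set relative to the array's 75th percentile. Probes were named through RefSeq accessions (20503 genes), and the brightest probe stood for a gene. Genes for which some group had both arrays well above background were tested with limma 3.58.1 in R 4.3.3, on all 4 groups together with 4 residual degrees of freedom. Benjamini-Hochberg adjustment over 15546 genes was used with a threshold of 0.05. No depth exists for arrays, and their number limits the precision. The fit was tested on simulated arrays with known changes.

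The members, lists and tests were chosen with earlier results of these data known. All 38 members were accounted for. Every array is given for the members that passed in a silencing comparison, the 4 highest and 4 lowest averages and most main regulators. Of the regulators, EIF2AK3 is given only by its differences and ERN1 only by its range. Members that passed only between the control cells are given by that fold or by their differences. Of the other lists, genes that passed and the 2 highest and 2 lowest averages are named. The alternatives were other scalings, filters, probe rules and fits, and leaving out each array in turn. No per-sample columns went unassigned (0).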

Additional observations from a re-analysis of the deposited data

Results flagged for a closer look

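For 2 genes every silenced array lay on one side of the controls in MDAH cells and on the opposite side in SKOV3 cells, 2 of the 37 members tested, where 11.8% of all genes did so. The count was 4 under quantile normalization and with the authors' value table, where SLC7A5 (lower in MDAH, higher in SKOV3) and EDEM1 (higher in MDAH, lower in SKOV3) joined, 3 with normexp, and 2 with arrays centred on their medians, then NUPR1 and EDEM1. NUPR1 had a MDAH effect minus SKOV3 effect of -2.72 on the log2 scale (adjusted p = 0.129 from limma), and it was not well above background on either silenced MDAH array, so that only the SKOV3 side is a measured change. PHGDH had a value of -2.46 (adjusted p = 0.175 from limma), with the silenced arrays at 3.79 and 3.05 against 4.25 and 3.80 in MDAH controls and at 1.76 and 2.60 against 0.20 and 0.46 in SKOV3 controls, and its MDAH arrays overlapped once arrays were centred on their medians. Neither difference passed the threshold.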

How the results depend on the processing

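Of 2588 single-gene values recomputed under the alternatives, 2391 kept their direction and their side of the threshold, 151 no longer passed, 32 newly passed and 14 changed sign. All values that changed sign were of differences that did not pass at the settings used above. With the replicate block (the number in the sample title as a block), these were HSPA4L in MDAH cells (0.05), CREB3L2 in SKOV3 cells (0.11) and the averages of ABCC2 (-0.48), CEBPB (0.11) and SEL1L (0.06). With normexp and quantile normalization the average of AKR1C1 was 0.01. The difference between the lines became -0.11 for HSP90B1 under quantile normalization, under the authors' value table and under normexp, and 0 for CALR under normexp. Leaving out 1 array, the value of SEL1L in MDAH cells lay between -1.58 (without sh-SFPQ#2, where it passed) and 0.14 (without sh-SFPQ#3). The difference between the lines lay between -1.45 and 0.02 for HERPUD1 and between -1.51 and 0.05 for HSPA5, and was above 0 only without MDAH sh-SFPQ#3. The average of ABCC2 lay between -0.01 (without SKOV3 sh-SFPQ#3) and 0.88. The cause was not tested.

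The count of ATF4 branch genes called in SKOV3 cells was 3. It was 1 under quantile normalization and 1 with the authors' value table, 0 without the filter on dim probes, 0 with each line fitted alone, 0 with the replicate block and 5 with an intensity trend in the prior variance. For the average of both lines the branch count was 1, against 4 with normexp and quantile normalization, 3 among genes well above background on all 8 arrays, 2 with the mean of all probes, 3 with the trend and 0 with the replicate block. The ER chaperone count for the average was 1, against 0 under quantile normalization, with the authors' value table, without the filter and with the replicate block, and 2 with normexp, with the 8-array filter and with the trend. In MDAH cells no alternative that kept all arrays changed the counts of either branch. The replicate block is given only here. The number of a silenced array is its shRNA in both lines and that of a control only a number, and deviations of same-numbered arrays from the group means correlated at 0.363 for silenced cells and 0.0777 for controls. With it, the average calls of ATF3, DNAJB9, SESN2, SLC6A9, CRYAB and COL1A1 were lost (limma adjusted p = 0.118, 0.234, 0.224, 0.179, 0.128 and 0.184), as were those of SFPQ itself in MDAH cells, SKOV3 cells and their average (0.0949, 0.0765 and 0.0529).

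The sign of the ER chaperone median depended on the scaling. In MDAH cells it was -0.10 under quantile normalization and with the authors' value table and -0.08 with normexp, against 0.04. In SKOV3 cells it was 0.01, 0.01 and 0 under the same settings and 0.09 with the replicate block, against -0.11. Its difference between the lines was 0.16 with arrays centred on their medians, and its gap between control cells 0.35 there and 0.34 with the mean of all probes, against 0.50. Median centring moved the median of all genes in MDAH cells by 0.11. The gap of the ATF4 branch was 1.14 with the 8-array filter. The SLC6A9 value in SKOV3 cells fell to 1.12 with the mean of its probes.

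Across all genes, 316 were called in MDAH cells, against 622 with normexp, 114 with the 8-array filter, 142 with the line fitted alone and 93 with the replicate block. In SKOV3 cells 155 were called, against 322 with normexp, 39 without the filter, 0 with the line alone, 273 with the trend and 0 with the replicate block. For the average 880 were called, against 1435 with normexp, 370 without the filter, 1382 with the trend and 80 with the replicate block. For the difference between the lines 15 were called, against 23 with median centring, 29 under quantile normalization, 28 with the authors' value table and 0 with normexp, the 8-array filter, the trend or the replicate block.

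Leaving out 1 array at a time, the count of ATF4 branch genes ranged from 0 to 4 in SKOV3 cells, from 0 to 3 for the average and from 0 to 1 for the difference between the lines. That of the ER chaperone branch ranged from 0 to 2 in MDAH cells, the 2 without MDAH sh-SFPQ#2, and from 0 to 3 for the average. All-gene counts ranged from 9 (without MDAH control 1) to 1091 (without MDAH sh-SFPQ#2) in MDAH cells, from 13 (without MDAH control 1) to 595 (without SKOV3 sh-SFPQ#2) in SKOV3 cells, from 32 to 1686 for the average and from 0 to 182 for the difference. The average of the ATF4 branch median ranged from 0.17 to 0.52 and that of the ER chaperone branch from -0.13 to 0.06, the ER chaperone median in SKOV3 cells from -0.19 to 0.02, and its difference between the lines from -0.06 to 0.18. A group left with 1 array is assumed to vary like the others.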
